A study of Mus musculus with 3 samples.

Results

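Mouse embryonic stem (ES) cells were compared with p53-null fibroblasts grown from mouse embryos (p53-null MEF) on 1 Agilent one-colour array each, out of 3 arrays in the study. The third array held MEF that the series text calls wild type for p53, written below as MEF. All 3 samples carried a Nanog-GFP reporter, in which green fluorescent protein reads out the pluripotency gene Nanog, so its presence did not differ between them. Total RNA was taken with Trizol and labelled with Cy3. The labels give no strain, age, sex, passage or culture condition, do not say which piece of the p53 gene (Trp53) was removed, and do not say whether the ES cells grew on feeder fibroblasts or whether embryos were pooled. The study asked about the role of p53 in making induced pluripotent stem cells from fibroblasts, and its own text sets MEF beside the p53-null cells and, separately, beside ES cells. The pair described here sets the pluripotent cell beside the fibroblast that lacks p53. The 2 arrays were chosen by their titles. Of 27537 gene labels with a value on all 3 arrays, 18423 were well above background on at least 1 of these 2 arrays and make up the comparison. Of these, 14957 matched a RefSeq gene.

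As background, ES cells renew themselves while keeping the capacity to form all tissues of the embryo, through a circuit of transcription factors around Oct4, Sox2 and Nanog. Fibroblasts are mesenchymal cells that build connective tissue and keep a positional Hox code. p53 is a transcription factor that answers DNA damage and other stress by switching on genes for cell cycle arrest, death and repair, the best known being Cdkn1a (p21) and its own inhibitor Mdm2.

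Signals are given in units of the scanner software's background-corrected Cy3 brightness. Each probe's own units are comparable across arrays only after scaling, because the 75th percentile of all probes was 834 units in ES cells, 1040.0 in p53-null MEF and 829 in MEF. A difference below is therefore the log2 signal minus the log2 75th percentile of its own array, ES cells minus p53-null MEF, so that 1 is 2-fold. Between 60.4% and 64.4% of spots were well above background, and no spot was saturated. Where only 1 array was well above background, the difference is a bound, written "at least" (or "or lower"). It was taken from the lowest signal well above background on the dim array, 10.1 units in ES cells and 16 in p53-null MEF, or from the dim signal itself if that was brighter, as for Igfbp5, in which case it is no strict minimum. Values in parentheses after a gene are differences on this log2 scale, and a second value is the difference from MEF. The spread over 10 printed spots of 1 probe was 3.32% in ES cells and 3.62% in p53-null MEF, and the software's own error came to a median of 0.20 on the log2 scale per difference. These errors cover spots and scanning only. With 1 array per side there is no replicate and no test, and the number of arrays limits the precision. The ES cell and p53-null arrays also lay on different slides, so slide and cell type cannot be told apart, while ES cells and MEF shared a slide. In bulk RNA, fewer cells of a type and less RNA per cell cannot be told apart. The scaling matters for small differences: the spike-in controls averaged 13.5 (log2) in ES cells, 12.09 in p53-null MEF and 13.73 in MEF. Scaling on them would shift every measured difference by -1.73, so that smaller positive differences would change sign. Bounds shift alike, but one that no longer gives a fold is set to 0.

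The arrays of ES cells and p53-null MEF differed widely and in both directions. Of the 18423 genes, 1594 had 5-fold or more signal in ES cells (8.65%) and 1913 had 5-fold or more in p53-null MEF (10.4%). Of these, 675 and 447 were bounds. At 2-fold the numbers were 4927 higher (26.7%) and 4372 lower (23.7%), which left 9124 genes (49.5%) within 2-fold. The middle of the distribution lay at a difference of 0.17, with quartiles at -0.92 and 1.08. These values and the 2-fold shares of 26.7% higher and 23.7% lower are the reference for every gene list below, also where not repeated. Differences of 100-fold or more were found for 122 genes higher and 74 lower in ES cells. The split depended on scaling: with no scaling 1267 genes were higher and 2330 lower at 5-fold, and on the spike-in controls 540 were higher and 5723 lower.

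**Figure D1:**
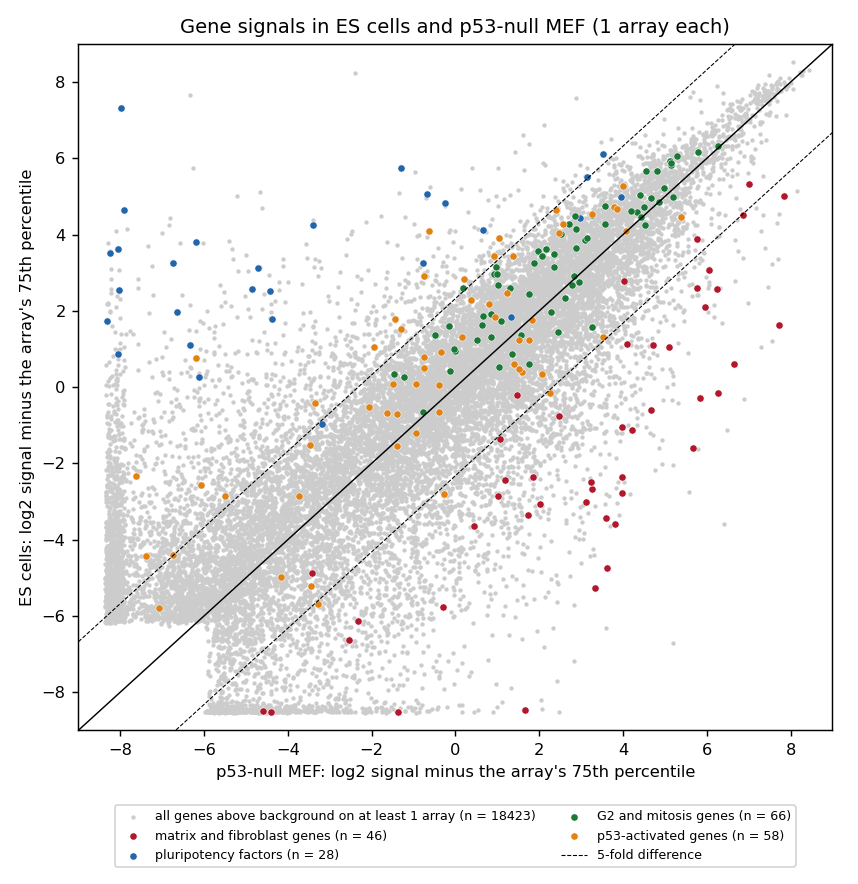
Signal of each gene in ES cells (vertical axis) against p53-null MEF (horizontal axis), both as log2 signal minus the array's 75th percentile. Grey points are the 18423 genes well above background on at least 1 array, coloured points are members of 4 gene lists, the solid line marks equal signal and dashed lines a 5-fold difference. Pluripotency factors lie above the solid line and matrix genes below it. Of 66 G2 and mitosis genes, 38 lie within 2-fold of it, 25 above and 3 below that range, with a median difference of 0.78.

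The largest measured excess in ES cells was that of Dppa5a, a marker of early embryo and ES cells, which read 251767 units in ES cells and 196 in p53-null MEF, a difference of 10.65. Car2, a carbonic anhydrase, read 26821 units in ES cells and 28.2 in p53-null MEF (10.21). They were followed by Dnmt3l, the cofactor of the de novo DNA methyltransferases, at 9.78, by Fbxo15, an ES cell marker dispensable for self-renewal, at 9.31, and by Ccnb1ip1, a ubiquitin ligase of meiotic crossing over, at 9.22. The next were 1700029P11Rik at 8.94, Eprn at 8.68, the adhesion molecule Epcam at 8.46, the homeobox gene Nkx6-2 at 8.30 and the growth factor Nodal at 8.25. For other genes the p53-null signal was too dim to measure, and the difference is a bound. Tdh, the mitochondrial enzyme that breaks down threonine, read 168690.0 units in ES cells and 13.0 in p53-null MEF, where it was not well above background (at least 13.68). Zfp42 (Rex1), a zinc finger marker of naive ES cells, read 132583 units in ES cells and 4.11 in p53-null MEF, where it was not well above background (at least 13.33). The bHLH factor gene Tcf15 was at least 11.77, the nuclear receptor gene Nr0b1 (Dax1) at least 10.68, and Tex19.1, which restrains transposons in the germ line, at least 10.46.

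At the opposite end, Mgp, the matrix Gla protein that keeps soft tissue from calcifying, read 69.3 units in ES cells and 87779 in p53-null MEF, a difference of -9.99. The collagen gene Col12a1 stood at -8.59, the fatty acid binding protein gene Fabp4 at -8.53, the microfibril gene Fbn2 at -8.36 and the secreted protein gene Ccdc80 at -8.33. Below them came the prostaglandin transporter gene Slco2a1 (-8.06), the aggrecan-cutting protease gene Adamts5 (-7.73), the urea transporter gene Slc14a1 (-7.70), Ly6a (Sca-1, -7.65) and the carbonyl reductase gene Cbr2 (-7.63). Among genes not well above background in ES cells, Lrrc17 read 7.90 units in ES cells and 38178 in p53-null MEF, with ES cells not well above background, which puts it at -11.57 or lower. The growth factor binding protein gene Igfbp5 had a value of -9.93 by its brightest probe and -3.56 by another. The noncoding RNA Xist stood at -9.21 or lower, the Wnt antagonist gene Dkk2 at -8.84 or lower and the chemokine gene Cxcl5 at -8.79 or lower.

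The pluripotency factors formed the highest list. Of 28 factors, all had a value, 27 were higher by 2-fold or more in ES cells (all genes, 26.7%), none was 2-fold lower (all genes, 23.7%), and their median difference was 6.98. Of these 28 values, 12 were bounds, which entered the count through their ES cell signal alone. The median was 5.61 with normexp background correction and 4.55 over the members measured on both arrays. Pou5f1 (Oct4), the factor without which pluripotency is lost, read 9504 units in ES cells, 3.43 in p53-null MEF and 2.68 in MEF, with neither fibroblast well above background, or at least 9.53. Sox2, its DNA-binding partner, read 15830.2 units in ES cells, 99.1 in p53-null MEF and 122 in MEF, a difference of 7.64. Nanog, the third member of the core, read 7946 units in ES cells, 9.74 in p53-null MEF and 6.44 in MEF, with neither fibroblast well above background, or at least 9.27. The Oct4 and Nanog signals of both fibroblast arrays were thus not well above background, while a low Sox2 signal was.

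The upstream region of Nanog is shown because Oct4 and Sox2 are known to act on it and all 3 genes stood together here. The 250 bases before its RefSeq start, chr6:122707315-122707564 on the plus strand of GRCm38.p6, were searched on both strands for the known joined motif of both factors, the Sox2 letters CATTGT followed after 1 free base by the Oct4 letters ATGCAAA. It was found on the minus strand, between 151 and 138 bases before the start, and appears in capitals as the plus strand reads it.
Nanog: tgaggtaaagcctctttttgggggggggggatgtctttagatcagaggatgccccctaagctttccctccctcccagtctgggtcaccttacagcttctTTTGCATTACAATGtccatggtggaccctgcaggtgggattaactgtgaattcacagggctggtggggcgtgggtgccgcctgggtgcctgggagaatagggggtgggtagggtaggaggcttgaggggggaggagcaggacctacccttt
Among 27025 genes with such a region, 1 held a match of this exact spelling. A match is a description of letters and measures no binding.

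Further factors of the circuit lay in the same range. Esrrb, an orphan nuclear receptor, read 10349 units in ES cells and 3.92 in p53-null MEF, where it was not well above background (at least 9.65). A second Esrrb probe gave 3.75. Nr5a2, another nuclear receptor that can act on Pou5f1, read 11720.3 units in ES cells and 14.3 in p53-null MEF, where it was not well above background (at least 9.83). The transcription factor gene Tfcp2l1 differed by 6.93, Mycn by 7.03 and Zscan10 by 7.44. The RNA-binding gene Lin28a, which blocks let-7 maturation, was at least 7.75 higher, and its paralogue Lin28b differed by 6.15. Zscan4c, which marks a transient subset of ES cells, was at least 8.56 higher. The lowest members by the brightest probe were Tbx3 at 0.51, Klf2 at 1.04 (3.51 at a second probe), Myc at 1.46 and Sall4 at 2.23.

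Klf4 and Myc, both used with Oct4 and Sox2 to reprogram fibroblasts, were already strongly detected in fibroblasts. Klf4 read 37741 units in ES cells, 9144 in p53-null MEF and 45701 in MEF. Its difference was 2.36 from p53-null MEF and -0.28 from MEF, so the ES signal lay above the first fibroblast and within 2-fold of the second. Klf2, a related factor, showed the same order of arrays by its brightest probe, with 26458 units in ES cells, 16094 in p53-null MEF and 46867 in MEF. Its second probe gave a larger difference from p53-null MEF (3.51). Myc read 18109 units in ES cells, 8219.7 in p53-null MEF and 5084 in MEF, differences of 1.46 and 1.82.

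Genes that mark ES cells without being core factors were also higher in most cases. Of 39, 33 were 2-fold higher or more (all genes, 26.7%) and 2 were lower (23.7%), with a median of 6.07. Of these 39 values, 16 were bounds, and the median was 4.52 over the members measured on both arrays. Dppa4, a chromatin protein of the early embryo, was at least 9.81 higher, Trap1a at least 10.12 and the small GTPase gene Eras, which drives ES cell growth, at least 8.23. Cdh1 (E-cadherin), which holds ES colonies together, read 15802 units in ES cells and 9.67 in p53-null MEF, where it was not well above background (at least 10.26). Alkaline phosphatase (Alpl), the classical ES cell stain, read 3435 units in ES cells and 33.5 in p53-null MEF, a difference of 7.0. The exceptions were the fucosyltransferase gene Fut4 at -1.77 and the secreted phosphoprotein gene Spp1 at -1.13, with the tetraspanin gene Cd9 at -0.26 among those within 2-fold. Cd9 read 17807 units in ES cells, 26507 in p53-null MEF and 28039 in MEF, and so was bright on every array. In the sample labelled ES cells all 28 pluripotency factors were well above background.

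Threonine and one-carbon metabolism, a known requirement of mouse ES cells, held some of these extremes while the list as a whole lay near all genes. Of 31 genes with a value, 10 were 2-fold higher (all genes, 26.7%) and 5 lower (23.7%), and the median was 0.47 (-1.24 on the spike-in controls). Gldc, the glycine decarboxylase that follows Tdh, read 6743 units in ES cells and 154 in p53-null MEF (5.77). Pipox was at least 9.81 higher and the cytosolic serine hydroxymethyltransferase Shmt1 differed by 2.18, against 0.26 for the mitochondrial Shmt2. Gcat, which completes the step after Tdh, differed by 1.14. Lower signals were found for the mitochondrial folate enzyme Aldh1l2 (-4.43), the sarcosine dehydrogenase Sardh (-3.59) and the serine synthesis enzyme Phgdh (-1.71).

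**Figure D2:**
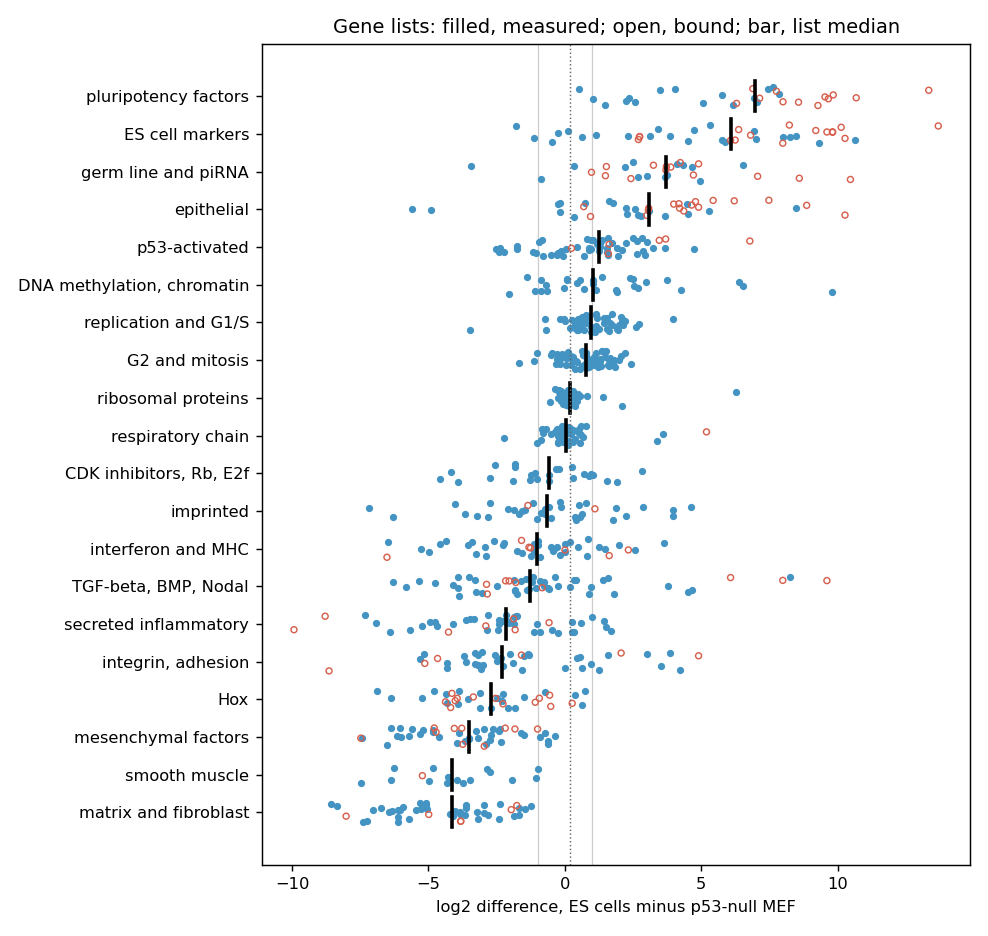
Differences in log2 signal, ES cells minus p53-null MEF, for the members of 20 gene lists. Filled points were measured on both arrays, open points are bounds, bars are list medians, the dotted line is the median of all genes (0.17) and thin lines mark 2-fold. The medians run from 6.98 for pluripotency factors to -4.15 for matrix genes. Scaling on the spike-in controls shifts values by -1.73, except that a bound that no longer gives a fold is set to 0. It turns the medians of p53-activated, DNA methylation and chromatin, replication, mitosis, ribosomal and respiratory genes negative. The medians of ribosomal and respiratory genes also turn negative with median scaling or no scaling, and that of respiratory genes with quantile normalization.

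Signalling genes showed ligands and receptors of different pathways on opposite sides. The LIF and Stat3 pathway keeps mouse ES cells undifferentiated in culture. In it, 6 of 17 genes were 2-fold higher (all genes, 26.7%) and 9 lower (23.7%), with a median of -1.04. The kinase adaptor gene Gab1 (3.93) and the target genes Pim1 (3.22) and Socs3 (1.35) were higher, a second, dim Pim1 probe giving a bound of 0.07, while the receptor chain gene Osmr, the partner of gp130 for oncostatin M, read 79.1 units in ES cells and 12467 in p53-null MEF (-6.98). The kinase genes Jak2 (-3.23) and Jak1 (-2.45, and up to -0.64 at other probes) and the gp130 gene Il6st (-1.60) were lower too.

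In the TGF-beta, BMP and Nodal pathway, 10 of 52 genes were higher (all genes, 26.7%) and 29 lower (23.7%), with a median of -1.27. Named members of different branches lay on opposite sides. Higher in the Nodal branch were Nodal as above, its coreceptor Tdgf1 (Cripto) at least 9.60, the ligand gene Gdf3 at least 7.98, the inhibitors Lefty1 (4.52) and Lefty2 (at least 6.07) and the receptor gene Acvr2b (4.64). In the TGF-beta branch, Tgfb2 read 27 units in ES cells and 2632 in p53-null MEF (-6.29), Tgfb3 differed by -5.82 and the type II receptor gene Tgfbr2 by -5.34. The activin subunit gene Inhba differed by -4.75, and the BMP and TGF-beta target Id3 by -3.52, against -0.62 for Id1.

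The Wnt list had 13 of 58 genes higher (all genes, 26.7%) and 24 lower (23.7%), with a median of -0.50. Sp5, a direct Wnt target in the embryo, read 3564 units in ES cells and 3.79 in p53-null MEF, where it was not well above background (at least 8.12). The receptor genes Fzd10 (5.89) and Fzd9 (3.17) and the nuclear effectors Lef1 (4.15) and Tcf7 (3.34) were also higher. Among secreted Wnt ligands and regulators, besides Dkk2, the R-spondin gene Rspo2 stood at -8.41 or lower, Wnt16 at -7.24 or lower, and Dkk3 at -5.96, while the antagonist gene Sfrp4 was higher (2.72). The Wnt carrier gene Wls differed by -5.15 and beta-catenin (Ctnnb1) by 0.24.

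Among FGF genes, 13 of 35 were higher (all genes, 26.7%) and 11 lower (23.7%), with a median of 0.34 (-1.39 on the spike-in controls). The ligand genes Fgf15 (at least 5.96) and Fgf17 (at least 5.91) and the ETS factors Etv5 (4.31) and Etv4 (3.30), both known FGF targets, were higher. The mesenchymal ligands Fgf10 (-3.77) and Fgf7 (-3.48) and Fgf5 (-3.10), a marker of the later epiblast, were lower.

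Germ line genes had the third highest median although neither sample is labelled as germ line. Of 33 genes for meiosis and the piRNA pathway, which silences transposons, 28 had a value. Of these, 24 were 2-fold higher and 1 lower, with a median of 3.71. All 28 cleared background in ES cells, and 14 of the values were bounds, which entered the count through their ES cell signal alone. The median was 3.33 over the members measured on both arrays, 2.29 with normexp background correction and 1.98 on the spike-in controls. Tex19.1 read 18133 units in ES cells and 9.28 in p53-null MEF, where it was not well above background. Syce1, a piece of the synaptonemal complex, read 4949 units in ES cells and 3.50 in p53-null MEF, where it was not well above background (at least 8.59), Mael, a piRNA pathway protein, was at least 7.06 higher, and Tdrd12 differed by 6.52. Rhox5 (4.11), Rec8 (3.76), Stag3 (4.33) and Ddx4, also called Vasa (2.68), were measured on both arrays. Tdrd7 was the exception at -3.43, with Tdrd9 at -0.87 and Tex11 at 0.35 within 2-fold. Tdrd6, Piwil1, Asz1, Nobox and Prdm9 were not well above background on either array. In the 250 bases before the RefSeq start, the E-box CACGTG, which reads the same on both strands, was found in 11 of the 31 of these genes with a sequence (35.5%), beside 6.86% of 27025 genes. The 11 were Tdrd1, Tdrd9, Mael, Ddx4, Piwil1, Mov10l1, Sycp1, Sycp3, Stag3, Syce2 and Hormad1, which include Piwil1 with no signal above background and Tdrd9 within 2-fold.

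The DNA methylation and chromatin list was higher on the main scaling, with 17 of 30 genes 2-fold higher, 3 lower and a median of 1.04, which turned to -0.69 on the spike-in controls. The de novo methyltransferase Dnmt3b read 13460.2 units in ES cells, 183 in p53-null MEF and 46.7 in MEF (6.52), and its relative Dnmt3a differed by 2.97, with other probes down to -0.25. The maintenance enzymes lay lower, Dnmt1 at 1.01 and its partner Uhrf1 at 1.04. The oxidising enzymes split: Tet1 differed by 6.39, Tet2 by 3.72 and Tet3 by -0.87. The remodeller Chd7 differed by 4.25. Lower signals were found for the methyl-CpG binding gene Mbd1 (-1.40) and the histone methyltransferase Suv39h1 (-1.09).

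Polycomb genes, which repress developmental genes through histone marks, had paralogues on both sides. Of 30, 12 were higher (all genes, 26.7%) and 9 lower (23.7%), with a median of 0.61 (-1.12 on the spike-in controls). Cbx7 read 8511 units in ES cells and 103 in p53-null MEF (6.69), while Cbx8 (-2.74) and Cbx6 (-1.41) were lower, with other probes up to -0.89 and -0.23. Phc1 differed by 3.42 and Phc2 by -2.26. Pcgf6 differed by 2.79 and Bmi1 by -2.55. The accessory genes Jarid2 (5.86) and Mtf2 (3.75) were higher, and the catalytic Ezh2 differed by 1.75.

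Matrix and fibroblast genes were lower: by the brightest probe of each, all 46 were 2-fold lower or more in ES cells (all genes, 23.7%), and the median was -4.15, with a range from -8.59 to -1.25 for fibronectin (Fn1). The fibrillar collagen gene Col3a1 read 275 units in ES cells, 52919 in p53-null MEF and 87192 in MEF (-7.27). Fbn1, the fibrillin of elastic fibres, read 69.0 units in ES cells and 14675 in p53-null MEF (-7.41), and periostin (Postn) read 77.6 units in ES cells and 12647 in p53-null MEF (-7.03). Lumican (Lum), a collagen-binding proteoglycan, stood at -8.02 or lower. The platelet-derived growth factor receptors, markers of mesenchyme, differed by -6.34 for Pdgfrb and -4.10 for Pdgfra. The smallest differences after Fn1 were those of Prelp (-1.47), Fbln1 (-1.68, and -0.31 at a second probe) and vimentin (Vim, -1.68). In ES cells 40 of the 46 were still well above background, with a summed signal of 133480.0 units, against 1646130.0 in p53-null MEF and 2228020.0 in MEF, where all 46 were well above background. Fn1 itself read 5769.7 units in ES cells and 17063 in p53-null MEF. The part of feeder or differentiated cells in this signal was not tested.

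Transcription factors of mesenchyme gave a median of -3.52, with 40 of 45 lower and none higher. Of these 45 values, 10 were bounds. The median was -2.58 with normexp background correction and -3.52 over the members measured on both arrays. Tbx5 and Pitx1, which pattern the forelimb and hindlimb, stood at -7.48 or lower and at -7.43. Prrx1, a limb mesenchyme factor, read 116 units in ES cells, 13233 in p53-null MEF and 13569 in MEF (-6.52). Of the genes that drive epithelial to mesenchymal transition, Snai2 differed by -5.61, Twist2 by -5.33, Snai1 by -3.95, Twist1 by -3.68 and Zeb1 by -2.76. Members near equal signal were Id2 (-0.35), Id1 (-0.62), Foxp1 (-0.74, and up to 0.59 at other probes) and Tead1 (-0.90).

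Hox genes, which encode position along the body and limb, were lower for 27 of 35 with a value, none was 2-fold higher, and the median was -2.71. Of these 35 values, 13 were bounds. The median was -1.41 with normexp background correction and -2.91 over the members measured on both arrays. Hoxa11 read 59.0 units in ES cells, 8772 in p53-null MEF and 3232 in MEF (-6.90), Hoxd13 read 149 units in ES cells, 15246 in p53-null MEF and 3036 in MEF (-6.36) and Hoxc9 read 59.9 units in ES cells, 2849 in p53-null MEF and 2879 in MEF (-5.25). Hoxd13 and Hoxa11 act in the distal limb, and both had more signal in p53-null MEF than in MEF. Among the highest members were Hoxc4 (0.62), Hoxa3 (0.38) and Hoxd1 (at least 0.27), each from the anterior end of its cluster.

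Integrins, adhesion and cytoskeleton genes had 29 of 42 lower and 8 higher (median -2.30). The collagen receptor gene Itga11 had a value of -8.64 and Itga4 of -5.14, with other Itga4 probes up to -1.05. As for Igfbp5, both values were taken from the dim ES cell signal itself and are no strict limits. Itgb3 stood at -5.29 by its brightest probe and 0.30 by another, and the laminin chain gene Lama4 at -5.17. In ES cells the embryonic laminin chain gene Lama1 was at least 4.90 higher, with 1.19 at a second probe. P-cadherin (Cdh3) read 457 units in ES cells, 31.0 in p53-null MEF and 912 in MEF (4.20), and Itgb7 and Itgb4 differed by 3.84 and 3.51. Cdh3 and Itgb4 also read higher in MEF than in p53-null MEF. N-cadherin (Cdh2) differed by -2.56, the reverse of E-cadherin. Smooth muscle genes, which activated fibroblasts express, were lower for 15 of 16 (median -4.12), led by myosin light chain kinase (Mylk, -7.47), alpha smooth muscle actin (Acta2, -6.36) and calponin (Cnn1, -6.25). Synpo2, at -1.0, was the member within 2-fold.

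Epithelial genes were higher, 28 of 37 (all genes, 26.7%) against 2 lower (23.7%), with a median of 3.07. Of these 37 values, 17 were bounds, and the median was 2.24 over the members measured on both arrays. Besides Cdh1 and Epcam, the transcription factor Grhl2 read 5968 units in ES cells and 5.47 in p53-null MEF, where it was not well above background (at least 8.86). Other Grhl2 probes gave values down to 1.34. The membrane protease St14 read 2284 units in ES cells and 8.40 in p53-null MEF, where it was not well above background (at least 7.47). The tight junction genes Cldn6 (at least 4.90), Cldn7 (4.50) and Ocln (at least 4.18) and the splicing factor Esrp1 (at least 4.79) were higher as well. The 2 lower members were keratins of simple epithelium, Krt7 (-5.60) and Krt19 (-4.91), which read 9703 and 7499 units in p53-null MEF. Krt18 (-0.19) and Krt8 (2.22) lay between.

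The labelled loss of p53 could be checked with 2 probes of Trp53. The probe at 69405827 to 69405886 on chromosome 11 (mm8), printed at 10 spots, read 4902 ± 143 units in ES cells, 56.3 ± 3.85 in p53-null MEF and 1304 ± 29.8 in MEF (SD over spots). Its difference was 6.77 ± 0.22 (software error) against p53-null MEF and 1.90 against MEF. The probe at 69396652 to 69396710 read 304 units in ES cells, 260.5 in p53-null MEF and 572 in MEF, differences of 0.54 and -0.92. The first probe is much lower on the p53-null array and the second is not. Which of them lies in the removed sequence is not stated in the labels, so the second may check nothing. Of the p53 family, Trp73 was higher (2.65) and Trp63 was not well above background in ES cells (-0.93 or lower).

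Genes that p53 is known to switch on were higher in ES cells than in p53-null MEF on the main scaling, with a median of 1.24, but not on the spike-in controls, with a median of -0.47. Of 58 with a value, 32 were higher by 2-fold or more (all genes, 26.7%) and 8 lower (23.7%). Against MEF, 17 were higher (all genes, 32.7%) and 22 lower (27.1%), with a median of -0.07. In p53-null MEF against MEF, 4 were higher (18.6%) and 30 lower (16.6%), with a median of -1.21. Scaling on the spike-in controls shifts ES cells minus MEF by 0.24 and p53-null MEF minus MEF by 1.97. Both shifts are upward and larger than these medians, so neither negative sign holds on that scaling. These comparisons share arrays and are not independent of each other, so their values are only set side by side.

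Single p53 target genes fell into clear patterns across the arrays. Eda2r, a death receptor of the TNF receptor family, read 1409 units in ES cells, 14.3 in p53-null MEF and 833 in MEF. With p53-null MEF not well above background, this is at least 6.78 above p53-null MEF and 0.75 above MEF. Other Eda2r probes gave values down to 1.99 against p53-null MEF. Trp53inp1, which promotes p53-dependent death, read 14306 units in ES cells, 673 in p53-null MEF and 5997 in MEF (4.73 and 1.25). Perp, a membrane protein of p53-driven death and of desmosomes, read 6308 units in ES cells, 622 in p53-null MEF and 13926 in MEF (3.66 and -1.15). Ccng1, an early p53 target, read 12439.6 units in ES cells, 2127 in p53-null MEF and 14368 in MEF (2.87 and -0.22). For Eda2r and Trp53inp1 the ES signal was the highest of the 3 arrays, and for Perp and Ccng1 it lay nearer to MEF than to p53-null MEF. Further high members were the multidrug transporter Abcb1a (at least 3.69), Ptprv (at least 3.46) and Tigar (3.22), a regulator of glycolysis, of which another probe gave 0.09.

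Cdkn1a, the inhibitor of cyclin-dependent kinases that carries much of the p53 arrest, behaved differently. It read 524 units in ES cells, 335 in p53-null MEF and 13478 in MEF, so that its signal was low in ES cells and p53-null MEF alike (0.96) and far higher in MEF (-4.70). Ephx1, a detoxifying hydrolase, had the same form, with 529 units in ES cells, 787 in p53-null MEF and 20068 in MEF (-0.26 and -5.25). Mdm2 read 4615 units in ES cells, 2444 in p53-null MEF and 4534 in MEF (1.24 and 0.02), and a second Mdm2 probe gave 3.04 against p53-null MEF. The death genes Bbc3 (Puma) and Bax differed by 1.58 and 0.95 from p53-null MEF and by 0.16 and 0.01 from MEF. Targets lower in ES cells than in either fibroblast were the death receptor Fas (-2.54 and -5.17), Dram1 (-2.41 and -4.70), Gadd45b (-2.40 and -1.21) and Trp53inp2 (-2.22 and -3.21). Gadd45a, a relative of Gadd45b, was higher (2.51 and 1.26).

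**Figure D3:**
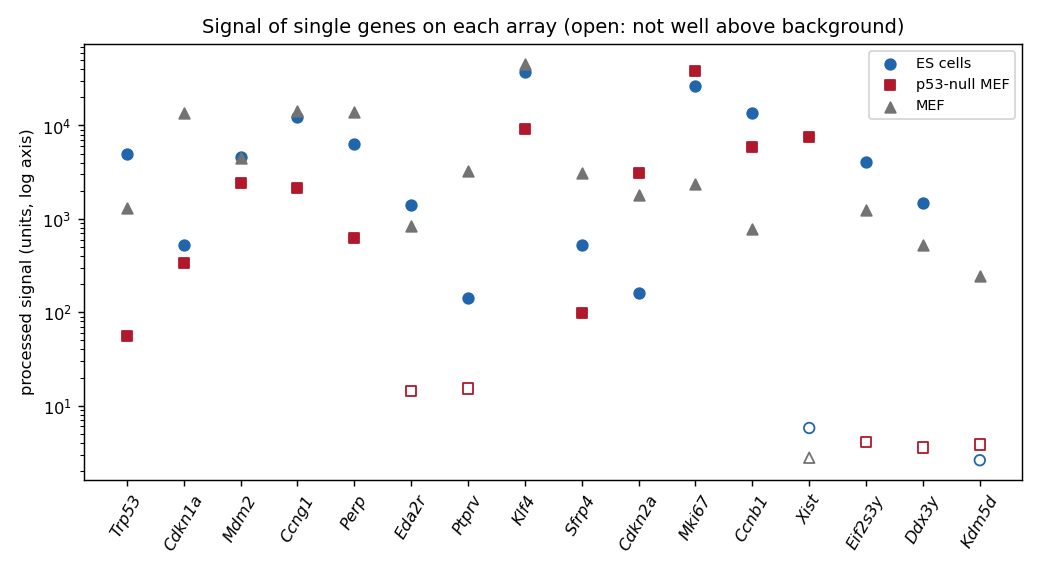
Processed signal in units, on a log axis, of single genes on the ES cell, p53-null MEF and MEF arrays; open symbols were not well above background. Units are not scaled between arrays and do not compare genes with each other. Cdkn1a is low in ES cells and p53-null MEF and high in MEF, Mki67 and Ccnb1 are high in both of the former, and Xist is above background only in p53-null MEF.

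The list of p53, its relatives and its regulators had a median of 0.85 (11 of 28 higher, 2 lower), which was -0.88 on the spike-in controls. Sirt1, a deacetylase of p53, differed by 2.87, the checkpoint kinase gene Chek2 by 2.46 and Mdm4 by 1.63, with other probes down to 0.80. The probes of the kinase gene Hipk2, which phosphorylates p53, disagreed. The brightest read 624 units in ES cells and 15986 in p53-null MEF (-4.36), while another gave 0.26.

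Several other inhibitors of the cell cycle were lower in ES cells. In the list of these genes with the Rb and E2f families, 12 of 25 were lower and 4 higher (median -0.60). Cdkn2c (p18) read 184 units in ES cells, 5541 in p53-null MEF and 2907 in MEF (-4.59), Cdkn2b (p15) read 1083 units in ES cells, 24412 in p53-null MEF and 35384 in MEF (-4.18), and Cdkn2a, which encodes p16 and Arf, read 163 units in ES cells, 3103 in p53-null MEF and 1785 in MEF (-3.94). For these 3 genes both fibroblast arrays stood well above ES cells. Cdkn1b (p27) differed by -2.75 by its brightest probe and -0.18 by another, and the cyclin gene Ccnd2 by -2.57. The transcription factors E2f2 (2.82), E2f8 (1.92, and -0.44 at a second probe) and E2f4 (1.54) and the kinase gene Cdk2 (1.04) were higher. The probes of Cdk6, a kinase of G1, disagreed, at -1.85 and 2.20. Probes 2-fold or more apart in opposite directions were also found for Ddx58 (-1.0 and 1.26), Apc (-1.03 and 1.0), Itga1 (-1.59 and 1.19), Itga6 (-1.88 and 1.24) and Fcgr3 (-1.42 and 1.80), so no direction is given for these genes.

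Cell division genes separated ES cells from MEF far more than from p53-null MEF. Of 66 genes of G2 and mitosis, 25 were 2-fold higher in ES cells than in p53-null MEF (all genes, 26.7%), 3 lower and 38 neither, with a median of 0.78 that became -0.95 on the spike-in controls. Against MEF 64 of the 66 were higher (all genes, 32.7%) and none lower, with a median of 3.17. The mitotic cyclin gene Ccnb1 read 13479.7 units in ES cells, 5931 in p53-null MEF and 787 in MEF (1.5 and 4.09), and the proliferation marker Mki67 read 26676 units in ES cells, 38308 in p53-null MEF and 2388 in MEF (-0.20 and 3.47). Largest against p53-null MEF were separase (Espl1, 2.42), the checkpoint kinase Bub1b (2.18), topoisomerase Top2a (2.05) and the condensin subunit Smc2 (2.0, and down to 0.52 at other probes). Lowest were the kinesin Kifc1 (-1.68), the centromere protein Cenpi (-1.15), the phosphatase Cdc25b (-1.02) and Cenpk (-0.52). In the 250 bases before the start, the CCAAT box was found in 39 of 56 of these genes with a sequence (69.6%), beside 37.5% of all 27025. The CHR element TTTGAA, known from mitotic genes, was found in 18 (32.1%), beside 18.3%, both counted on either strand. The CCAAT box was not particular to this list. Its share was 59.6% in replication genes, 54.2% in ES cell markers, 45.2% in germ line genes, 40.9% in pluripotency factors and 30% in matrix genes.

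Replication genes showed the same order of arrays. Of 57, 27 were higher than in p53-null MEF (all genes, 26.7%), 1 lower and 29 neither, with a median of 0.96 (-0.77 on the spike-in controls). Against MEF 56 were higher (all genes, 32.7%), with a median of 2.73. The origin recognition subunits Orc5 (3.96) and Orc1 (2.71), the clamp loader Rfc5 (2.59) and the primase partner Pola2 (2.21) were the highest. Cyclin E (Ccne1), which drives entry into S phase, read 70567 units in ES cells, 20165 in p53-null MEF and 8507 in MEF (2.13). Prim2, the primase subunit, was lower (-3.49 and -2.13), unlike its partner Prim1 (0.56 and 3.52).

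**Figure D4:**
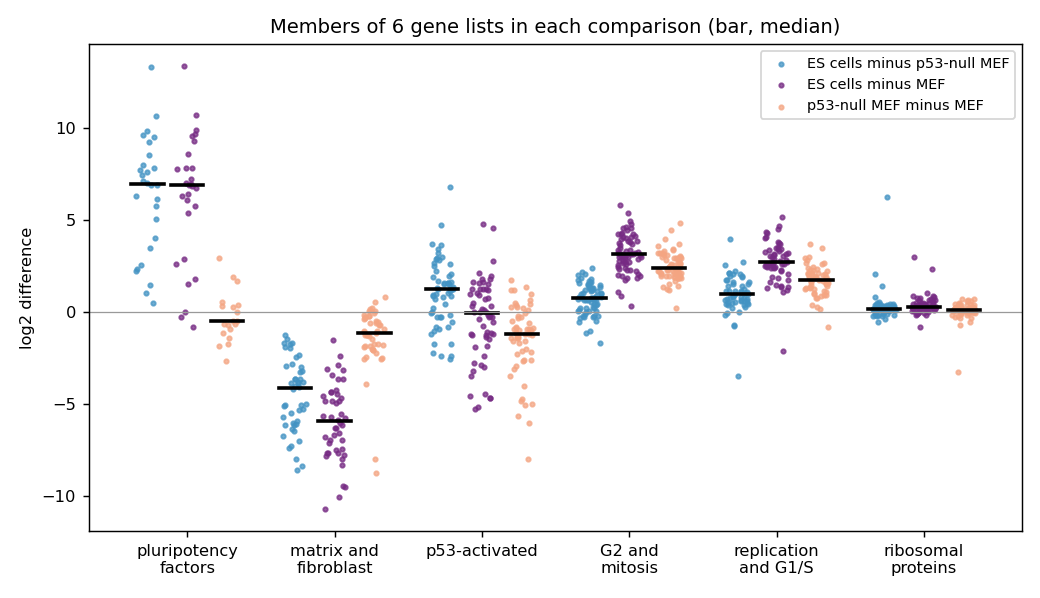
Differences in log2 signal of the members of 6 gene lists in each of the 3 comparisons, which share arrays; bars are medians. For G2 and mitosis genes the medians are 0.78 for ES cells minus p53-null MEF and 3.17 for ES cells minus MEF, and for pluripotency factors they are 6.98 and 6.89. On the spike-in controls a bound that no longer gives a fold is set to 0. Other values of ES cells minus p53-null MEF shift by -1.73. Those of ES cells minus MEF shift by 0.24 and those of p53-null MEF minus MEF by 1.97. This scaling turns the first comparison's medians of p53-activated, mitosis, replication and ribosomal genes negative, and median scaling and no scaling do so for ribosomal genes. The shift of ES cells minus MEF exceeds in size its p53-activated median (-0.07). That of p53-null MEF minus MEF exceeds its medians of p53-activated (-1.21), matrix (-1.11) and pluripotency genes (-0.51), so these negative signs do not hold either.

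Interferon and antigen presentation genes were lower for 23 of 45 and higher for 7 (median -1.01). The RNA sensor Ifih1 stood at -6.52 or lower (-0.81 or lower at a dimmer probe), Isg15, a ubiquitin-like antiviral protein, read 25.4 units in ES cells and 2822 in p53-null MEF (-6.48), and Ifit3 (-5.28) and the chemokine Cxcl10 (-4.97) were lower. Ifitm1, which is known to be active in the early embryo, read 5442 units in ES cells and 543 in p53-null MEF (3.64). B2m, the light chain of class I molecules, differed by -3.25, against 0.20 for the heavy chain gene H2-K1. Psmb9 (2.58), Oas2 (at least 2.32) and Trim25 (1.98) were higher.

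Secreted inflammatory and growth factor genes were lower for 33 of 45, with 3 higher (median -2.15). Besides Igfbp5 and Cxcl5, the chemokine genes Ccl7 (-7.32) and Cxcl12 (-6.92) were lowest. Cxcl12, the stromal chemokine that binds Cxcr4, read 186 units in ES cells and 28125 in p53-null MEF. The 3 higher genes were Vegfc (1.70), Igfbp2 (1.52) and Angptl4 (1.42).

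Imprinted genes did not share a direction: 8 of 36 were higher (all genes, 26.7%) and 15 lower (23.7%), with a median of -0.65. Igf2, the paternally expressed growth factor, read 671 units in ES cells, 123306 in p53-null MEF and 116036 in MEF (-7.20), and its neighbour H19, a maternally expressed noncoding RNA, read 321 units in ES cells, 31806 in p53-null MEF and 121771 in MEF (-6.31). Both neighbours were thus far lower in ES cells. Plagl1 (-4.03) and Osbpl5 (-3.67) were lower too. Phlda2, a brake on placental growth, was higher (4.61), as were the splicing factor Snrpn (3.98), the decarboxylase Ddc (3.95) and Ppp1r9a (2.88). Meg3 (0.62) and Mest (0.39) lay within 2-fold.

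Xist and several Y-linked genes were above background in 1 culture and not in the other. Xist is the noncoding RNA that coats the inactive X chromosome of female cells. The 4 probes for it are shown because each was well above background in p53-null MEF alone. Each is a 60-base probe on chromosome X, as the array file gives it, at chrX:99666300-99666359, chrX:99666788-99666847, chrX:99663669-99663728 and chrX:99669554-99669613 of mm8 in this order. The strand of the letters is that of the file.
Xist probe 1: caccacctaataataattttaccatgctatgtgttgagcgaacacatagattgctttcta
Xist probe 2: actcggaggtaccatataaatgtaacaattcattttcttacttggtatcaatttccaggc
Xist probe 3: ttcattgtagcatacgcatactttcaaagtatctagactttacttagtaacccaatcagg
Xist probe 4: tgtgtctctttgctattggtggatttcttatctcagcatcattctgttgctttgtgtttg
In p53-null MEF they read 7437, 2689, 634 and 123 units. In ES cells they read 5.78, 2.79, 3.86 and 3.58 units, none of them well above background, and neither were they in MEF, with 2.78, 6.63, 2.51 and 2.52 units. The Xist differences were -9.21, -7.74, -5.65 and -3.29 or lower. Tsix, the antisense partner, went the other way, with 497 units in ES cells, 55.3 in p53-null MEF and 3.12 in MEF, with MEF not well above background, a difference of 3.49.

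Most Y-linked genes with a signal had the reverse pattern. Eif2s3y, a translation factor, read 4104 units in ES cells, 4.07 in p53-null MEF and 1236 in MEF, with p53-null MEF not well above background (at least 8.32 against p53-null MEF). Ddx3y, an RNA helicase, read 1479 units in ES cells, 3.59 in p53-null MEF and 526 in MEF, with p53-null MEF not well above background (at least 6.85). A second Ddx3y probe gave 2.60. The demethylase gene Uty read 95.4 units in ES cells, 3.78 in p53-null MEF and 21.0 in MEF, with p53-null MEF not well above background (at least 2.89). Uba1y was at least 3.88 higher. Kdm5d was an exception for ES cells: it read 2.61 units there and 3.87 in p53-null MEF, both not well above background, and 245 in MEF. Usp9y and Sry were not well above background on any array, and Zfy1 (0.05) and Zfy2 (at least 0.34) did not separate the cultures. Of 20 further X-linked genes 6 were higher and 1 lower, with a median of 0.54 (-1.03 on the spike-in controls). The X-linked homeobox gene Rhox5 and the ES cell phosphatase gene Dusp9 (1.48) were among the higher. Between ES cells and p53-null MEF the Xist and Y signals differed along with cell type and p53 status. MEF, also fibroblasts, had the ES cell pattern for Xist, Eif2s3y and Ddx3y. For these genes p53-null MEF thus stood apart from both other arrays. Its p53 status, its slide and other traits of that culture cannot be told apart.

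Housekeeping lists lay close to the median of all genes, with single members far out. Of 62 ribosomal protein genes, 59 were within 2-fold, with a median of 0.18 that was -0.08 with median scaling, -0.14 with no scaling and -1.55 on the spike-in controls. The exceptions were Rpl39l, an autosomal copy of Rpl39, at 6.27, Rps4l at 2.08 and Rpl4 at 1.41. Rpl39l read 18814 units in ES cells, 304 in p53-null MEF and 2323 in MEF, against -0.14 for the parent gene Rpl39. Such copies can share probe sequence with their parent genes, and cross-hybridisation was not tested. Of 47 respiratory chain genes, 42 were within 2-fold, with a median of 0.02 that was negative with median, quantile or no scaling and on the spike-in controls. Cyct, the testis form of cytochrome c, was at least 5.19 higher, the uncoupling protein gene Ucp2 differed by 3.59 and the muscle subunit gene Cox7a1 by 3.39. Cox6a2, another muscle subunit, was lower (-2.24). The somatic Cycs differed by -0.80, with other probes up to 0.23.

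Glycolysis and hypoxia genes had a median of -0.08, with 10 of 43 higher and 11 lower, near the shares of all genes (26.7% and 23.7%). The hypoxia factor Epas1 was at least 5.38 higher, with 1.23 at a second probe. The glucose transporter Slc2a3 read 44392 units in ES cells and 1376 in p53-null MEF (5.33). Pdk1 (3.54) and Aldoc (2.59) followed, although a second, dimmer Aldoc probe gave -0.44. The hexokinases parted, with Hk2 at 2.46 and Hk1 at -2.34. Lowest were the vasodilator peptide Adm (-5.66) and the collagen hydroxylases P4ha2 (-3.75) and P4ha1 (-3.31). Among 24 genes often used as expression references the median was 0.43 (-1.30 on the spike-in controls), and they were not uniform: Gapdh differed by 0.40, Actb by -0.98 at one probe and 0.89 at another, Tbp by 1.98 and B2m by -3.25.

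Markers of other cell types were mixed. Endothelial markers were higher for 9 of 16 and lower for 5 (median 1.78, and 0.21 on the spike-in controls), and the defining gene Cdh5 did not clear background on these arrays. Robo4 (6.10) and Vwf (4.92) were higher, Erg (-7.11, and -1.22 at a second probe) and Flt1 (-3.42) lower. Neural and glial markers were higher for 11 of 19 and lower for 4 (median 1.27, and 0 on the spike-in controls). The neurotrophin receptor Ngfr read 2049 units in ES cells, 19.8 in p53-null MEF and 948 in MEF (7.05), the RNA-binding Elavl3 was at least 6.42 higher, Nefl differed by 6.35 and Pax6 was at least 5.99 higher. S100b (-5.16) and nestin (Nes, -3.03) were lower, and Gfap, Olig2 and Snap25 were not well above background on either array. Skeletal muscle markers were lower for 11 of 21 and higher for 4 (median -1.42). Actc1 read 195 units in ES cells and 12319 in p53-null MEF (-5.66). Myl1 (-4.36 or lower) and Chrna1 (-4.10) were lower too, while Mylpf (3.63) and Casq2 (at least 2.45) were higher. Myod1, Myf5 and Pax7 were not well above background on either array. Macrophage markers had a value for 12 of 19, with 4 higher and 3 lower (median 0.17, -0.42 on the spike-in controls and -0.18 where both arrays had to be above background). Their summed signal, not scaled between arrays, was 1587 units in ES cells and 808 in p53-null MEF. Laptm5, at 619 units in ES cells, was at least 5.59 higher and Fcgr2b at least 3.69. Cd68 was higher (2.43) and Cd14 lower (-2.41). Csf1r, Adgre1 and C1qa were not well above background on either array. The part of such cells in the results was not tested.

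Markers of the first lineages that ES cells can form were not higher as a list: 7 of 22 were higher and 10 lower, with a median of -0.46. Tfap2c read 2210.0 units in ES cells and 4.49 in p53-null MEF, where it was not well above background (at least 7.43), Cdx2 (trophectoderm) was at least 2.47 higher, and Sox17 (endoderm) at least 2.15. Gata3 (-4.80), Dab2 (-4.38) and Gata6 (-3.77), shared with mesenchyme, were lower, and Gata4, Foxa1 and Ttr were not well above background on either array. Bone and cartilage markers had a median of -0.83 (8 of 18 lower, 3 higher), with Col11a1 at -5.15 and Runx2 at -4.60, where a dim Runx2 probe gave a bound of -0.80. Adipocyte markers had a median of -0.35 (6 of 16 lower, 5 higher), with Fabp4 lowest and Cidea highest, at least 4.21.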

How the data were processed

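The authors deposited linear Cy3 intensities per spot, made with Agilent Feature Extraction 9.5.3.1, background-subtracted and corrected for spatial trends within an array, per the file headers. The values are not scaled between arrays. Of 43379 spots that are no controls, 62 (p53-null MEF), 176 (ES cells) and 192 (MEF) marked as uneven or outliers were left out. Spots of a probe were averaged as log2 values, each array's 75th percentile was subtracted, and the probe with the highest mean over the arrays stood for its gene. Other probes are given for some genes only. Among 6561 RefSeq genes with several probes, the ES cells minus p53-null MEF differences had a median SD between probes of 0.48. Of these genes, 130 had probes 2-fold or more apart in opposite directions. A probe was well above background where 50% or more of its spots were marked so. A bright probe no brighter than the bound of the dim array entered medians at 0. Of 41174 probes, 24375 were named by accession, 6301 by symbol and 2426 by synonym through RefSeq (GRCm38.p6), and 8072 by the design file. Python 3.11.15 was used, with limma 3.58.1 in R 4.3.3 for normexp, quantile and loess alternatives, and calculations were tested on simulated data. The authors' deposited value table held the same intensities, to ratios of 0.995 to 1.005. It has no log scale, centring or direction, and its medians are 51.8 (p53-null MEF), 50 (ES cells) and 43.2 (MEF).

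Members and lists were chosen with earlier results of these data known. Named genes are the 10 largest measured differences and 5 largest bounds each way, Trp53, Xist, the Y-linked genes, the 4 highest and lowest of each list, and genes whose probes disagree. Other genes named were chosen after their values were seen. Some members are not reported here by name. Whether probes lie in exons or untranslated regions was not determined, and with 1 array per group no test was made.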

Additional observations from a re-analysis of the deposited data

Results flagged for a closer look

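For 2 genes of the lists the direction of the ES cell difference turned with the fibroblast it was set against, by 5-fold or more on each side. Ptprv, a phosphatase gene that p53 is known to activate, read 141 units in ES cells, 15.4 in p53-null MEF, where it was not well above background, and 3285 in MEF. Its difference was at least 3.46 from p53-null MEF and -4.55 from MEF. A second, dimmer Ptprv probe gave at least 0.84 and -4.56. Sfrp4, a secreted Wnt antagonist, read 527 units in ES cells, 99.5 in p53-null MEF and 3089 in MEF, which gives 2.72 and -2.56. In both genes the ES cell signal lay between those of the fibroblasts. Both differences share the ES cell array, each rests on 1 array per side, and whether they differ from each other was not tested.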

How the results depend on the processing

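Of 37 gene lists, 19 had a median 2-fold or more from 0. All 19 medians kept their sign under normexp correction, quantile normalization, cyclic loess and other rules for dim probes and for several probes, and 16 did on the spike-in controls. Median scaling and no scaling shift measured differences by -0.26 and -0.32, which cannot turn a median of that size, and the authors' value table holds the same signals. On the spike-in controls the medians of DNA methylation and chromatin genes (-0.69) and of p53-activated genes (-0.47) changed sign. That of neural and glial markers became 0, the value given to a bound that no longer gives a fold. Of named genes 5-fold or more apart, none changed sign with normexp, quantile normalization, cyclic loess or other rules for several probes. Scalings that shift all genes alike cannot turn such a gene. The counts of genes 5-fold higher and lower were 892 and 1181 with normexp, and 540 and 5723 on the spike-in controls, with 8.62% of them higher. With no scaling 35.2% were higher. With both arrays above background 919 were higher, as bounds were left out. At 2-fold the counts were 4927 and 4372, and at 10-fold 831 and 1028. The cause of these shifts was not tested beyond the settings' own construction. Dim signals limit the bounds, and 1 array per side limits every value. No paired analysis was possible because each group had 1 array.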

Other observations

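Gene differences between ES cells and p53-null MEF were also summed up by chromosome, over RefSeq genes measured on both arrays. The median was 0.06 over all of them, highest on chromosome 8 (0.38, 674 genes) and lowest on chromosome X (-0.19, 430 genes). The other chromosomes lay between -0.14 (chromosome 6) and 0.23 (chromosome 11). Among genes above 500 units on every array the medians were 0.35 on chromosome 8 (400 genes) and -0.25 on chromosome X (204 genes). For ES cells against MEF, which shares an array, chromosome 8 had a median of 0.30 and chromosome X of 0.12, and for p53-null MEF against MEF they were -0.02 and 0.25. These are values of 1 array per side and no test was made.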
